A study of Rattus norvegicus with 8 samples.

Results

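The genes described here carry out the urea cycle and the breakdown of amino acids in liver. The set holds 39 genes, chosen by symbol and by the known role of the enzyme or carrier, out of 30562 genes in a table of RNA-seq read counts from rat liver. The choice was made with earlier results of these data known. All 39 were found, each in a single row, and 38 passed the filter on low counts. The lowest value of any tested member in any library was 1.92 CPM (counts per 1e+06 reads, scaled to the normalised size of the library), for Sds. The exception, the alanine aminotransferase Gpt, had 0 reads in 7 libraries and 4 reads in HCB replicate 2, and 97.8% of its exon bases lie under exons of Ppp1r16a on the same strand, so its level is not known from these counts.

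Liver is the organ in which surplus amino acids are stripped of nitrogen. Aminotransferases and dehydratases release the nitrogen as glutamate or ammonia, and the urea cycle converts ammonia and aspartate nitrogen to urea for excretion. Carbamoyl phosphate synthetase (Cps1), activated by the product of Nags, and ornithine transcarbamylase (Otc) work in the mitochondrion, to which Slc25a15 brings ornithine. Ass1, Asl and Arg1 complete the cycle in the cytosol. The carbon skeletons are burned or turned into glucose and ketone bodies through a separate pathway for each amino acid. In rodents most of these genes are turned on late in fetal life or after birth, and many are known targets of glucagon and glucocorticoids.

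The livers came from rats labelled as male Wistar animals with a starting weight of 160 g, 5 to a group, of which 2 per group were sequenced, so each library is a separate animal. The 4 groups were vehicle (control), atorvastatin (an inhibitor of cholesterol synthesis, in drinking water at a labelled 5 mg/kg per day), HCB (hexachlorobenzene, a persistent chlorinated fungicide, at 100 mg/kg by gavage, 3 doses a week over 30 days) and both agents together. Tissue was taken on day 37. From the recipe of the water in the labels, a rat at the starting weight would have received 31.25 mg/kg of atorvastatin, so the dose is uncertain. Each library held between 29.4 and 52.0 M reads assigned to genes (M, 1e+06 reads). Reads outside exons made up 15.3% to 34.0% of the 4 libraries without HCB and 7.46% to 11.4% of the 4 with it.

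Some values go against the labels, which may thus be wrong for some libraries, and every group name here means the library's label. Of 5 genes listed as Y-linked, 4 were higher in HCB versus control, and the summed level of the list was 1.16 to 3.01 TPM (transcripts per 1e+06, that is reads per base of exon scaled to a common total) in the libraries without HCB against 72.5 to 94.5 TPM in those with it, although all rats are labelled male, and the near absence of these reads goes against that label in the libraries without HCB. The fifth, Ddx3y, is placed on chromosome 13 in the table and was not called. All 5 fetal hepatocyte markers (Afp, Igf2, H19, Dlk1 and Gpc3) were lower in HCB versus control, from a sum of 48203 to 55572 TPM to a sum of 134 to 234 TPM. The 7 erythroid markers, the 6 tested neutrophil markers and the 6 cell cycle markers were all called lower as well (summed levels of 1855 to 4637, 129 to 218 and 212 to 521 CPM without HCB against 285 to 1285, 0.401 to 3.17 and 14.9 to 41.9 CPM with it). Of the 8 hepatocyte markers 2 were higher (Apoa2 and Serpina1), 1 was lower (Apoa1) and 5, albumin among them, were not called. Among other cells, the calls higher and lower were 2 and 1 of 4 cholangiocyte markers, 1 and 1 of 6 macrophage markers, 0 and 1 of 5 endothelial markers, 0 and 1 of 5 stellate cell markers and 0 and 1 of 3 pancreas markers. The neutrophil marker Ltf was at 0 reads in all 8 libraries. The Y-linked, fetal, erythroid, neutrophil and cell cycle lists, the exon share and the HCB label divide the libraries in the same way, so their parts in every HCB result below cannot be told apart. In whole tissue, fewer cells of a type and less RNA per cell cannot be told apart either.

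Most of the set was higher in the libraries labelled HCB. In HCB versus control 27 of the 38 tested members rose and 0 fell, at an adjusted p of 0.05 from edgeR's quasi-likelihood test with Benjamini-Hochberg adjustment over all 16591 genes tested. Across all genes 13% were called higher and 13.9% lower in that comparison. In atorvastatin plus HCB versus atorvastatin, which uses the other 4 libraries but the same estimate of the spread, 26 members rose and 1 fell, against 12.6% of all genes higher and 15% lower. Both comparisons called 25 members higher, and 9.64% of all genes were higher in both. The median log2 fold change of the members was 1.37 and 1.53, beside −0.09 and −0.11 over all genes. Fewer members were called higher with some libraries removed, and so were fewer of all genes. In HCB versus control the median of the members was 1.17 without control replicate 1 and 1.28 without HCB replicate 1. Over all genes it was −0.01 and −0.11. Under atorvastatin the members' median was 1.24 without atorvastatin replicate 1 and 1.36 without replicate 1 of both agents. Over all genes it was −0.07 and −0.12. Each of these fits leaves 1 library in a group.

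By CPM, for 28 of the 38 members all 4 HCB-labelled libraries lay above all 4 libraries without HCB, and for 0 all 4 lay below. Of these, Tat, Kmo, Haao, Ftcd and Bckdha overlapped on the TPM scale, which carries no TMM factor. Over all genes these shares were 21.8% above and 25% below. The members together made up 0.958% to 1.16% of the summed TPM of the libraries without HCB and 1.91% to 2.54% of that of the HCB-labelled libraries. The scaling of the libraries bears on these counts. With library totals and no TMM factor, the share of called genes that were higher moved from 48.5% to 24.2% in HCB versus control. Under atorvastatin it moved from 45.6% to 14.9%. The members called were 22 higher and 3 lower in HCB versus control and 20 higher and 3 lower under atorvastatin. Of all 16591 genes, 1041 were called higher and 3269 lower in HCB versus control, and 821 and 4701 under atorvastatin. The rises no longer called were Otc, Ftcd, Bckdha, Bckdhb and Aass in HCB versus control. Under atorvastatin they were Gls2, Hgd, Ftcd, Mat1a, Bckdha and Bckdhb. Of the members, 13 in HCB versus control and 14 under atorvastatin were called under every alternative tried.

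**Figure D1:**
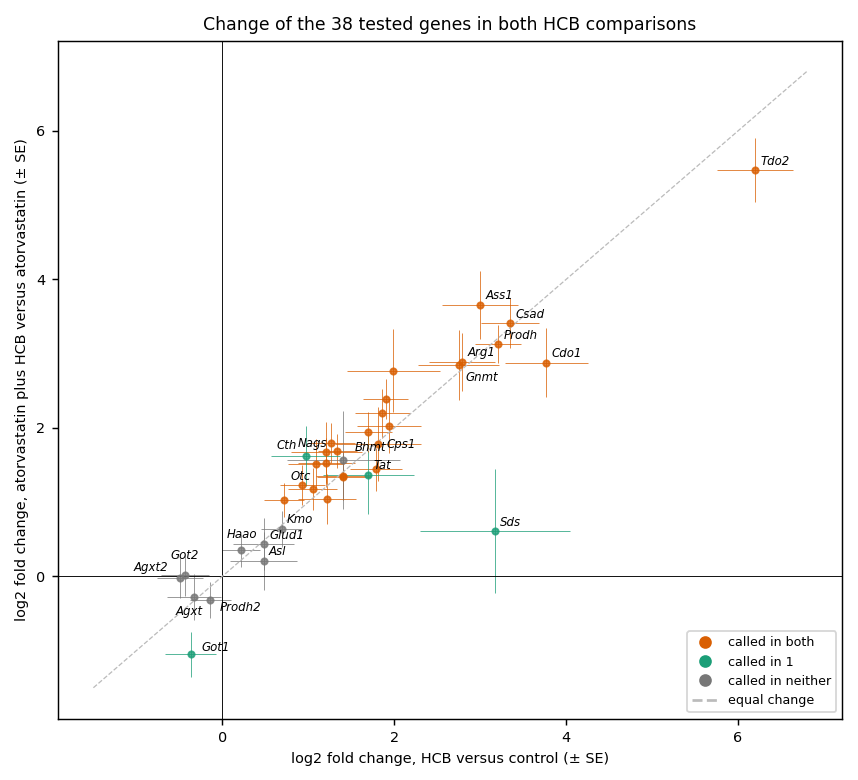
Log2 fold change of each of the 38 tested genes in HCB versus control (horizontal axis) and in atorvastatin plus HCB versus atorvastatin (vertical axis), with bars of 1 SE, coloured by the number of comparisons in which edgeR called the gene. The 25 genes called higher in both lie on either side of the line of equal change. Cdo1 (3.77 and 2.88) and Tdo2 (6.20 and 5.47) are among those off it, and Sds (3.17 and 0.61) lies furthest from it.

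Within the urea cycle 6 of 7 members rose in both comparisons, and the step after argininosuccinate was the exception. Ass1 (argininosuccinate synthase, chromosome 3, 14747368 to 14796903 on mRatBN7.2, as for all gene positions here) was at 194 and 346 CPM in control and 136 and 229 CPM with atorvastatin, against 2000 and 2314 CPM with HCB and 2854 and 1774 CPM with both agents. The lowest HCB-labelled library was several times the highest other library. Its log2 fold change was 3.00 ± 0.44 (SE; edgeR adjusted p = 0.000771) in HCB versus control, a 7.99-fold difference, and 3.66 ± 0.46 (edgeR adjusted p = 0.000286) under atorvastatin.

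Arg1 (arginase, chromosome 1, 20475968 to 20488422), which splits arginine into urea and ornithine, was at 131 and 251 CPM in control and 105 and 149 CPM with atorvastatin. It reached 1448 and 1188 CPM with HCB and 938 CPM in each library of both agents, without overlap. The log2 fold changes were 2.79 ± 0.38 (SE; edgeR adjusted p = 0.000532) and 2.89 ± 0.39 (edgeR adjusted p = 0.000462). Slc25a15, the ornithine carrier of the mitochondrial membrane (chromosome 16, 69634414 to 69653010), went from 77.3 and 120 CPM in control to 391 and 290 CPM with HCB, and from 78.0 and 90.3 CPM with atorvastatin to 231 and 227 CPM with both. Its log2 fold changes were 1.79 ± 0.30 (SE; edgeR adjusted p = 0.00152) and 1.44 ± 0.29 (edgeR adjusted p = 0.00487).

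Nags makes N-acetylglutamate, the activator that Cps1 requires. It was between 20.7 and 24.1 CPM in the 4 libraries without HCB and between 52.6 and 75.0 CPM in the 4 with it, and rose by 1.34 ± 0.23 (SE; edgeR adjusted p = 0.00179) and 1.69 ± 0.23 (edgeR adjusted p = 0.000501) on the log2 scale. Cps1 was the most abundant gene of the cycle, with a mean of 2107 TPM over all libraries. Its reads were 2102 and 3933 CPM in control, 1397 and 3162 CPM with atorvastatin, 11952 and 9146 CPM with HCB and 8698 and 6932 CPM with both, and its log2 fold changes were 1.81 ± 0.50 (SE; edgeR adjusted p = 0.0218) and 1.78 ± 0.50 (edgeR adjusted p = 0.0231). Replicate 1 was the lower library in both groups without HCB. The Cps1 call was lost without control replicate 1 or HCB replicate 1 in HCB versus control (edgeR adjusted p = 0.174 and 0.114), and under atorvastatin without atorvastatin replicate 1 or without either library of both agents (edgeR adjusted p from 0.0620 to 0.125).

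Otc, on chromosome X, rose by 1.09 ± 0.33 (SE; edgeR adjusted p = 0.0322) and by 1.52 ± 0.33 (edgeR adjusted p = 0.0073) on the log2 scale, from 125 to 240 CPM without HCB to 358 to 447 CPM with it. That call in HCB versus control was lost without control replicate 1, HCB replicate 1 or either library of both agents (edgeR adjusted p from 0.0514 to 0.252), and under atorvastatin removal of atorvastatin replicate 1 ended it (edgeR adjusted p = 0.0511). Asl (argininosuccinate lyase), which acts directly after Ass1, was at 163 and 288 CPM in control, 101 and 192 CPM with atorvastatin, 397 and 233 CPM with HCB and 151 and 187 CPM with both. The groups overlapped, and the log2 fold changes of 0.48 ± 0.39 and 0.21 ± 0.39 were not called (edgeR adjusted p = 0.388 and 0.717).

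The ratio of Ass1 to Asl within a library shows the same contrast without reference to library size. Per base of exon, Ass1 was 1.64 to 1.85 times Asl in the 4 libraries without HCB and 6.92 to 25.9 times Asl in the 4 with it. The ratio of Arg1 to Otc was 1.92 to 2.45 without HCB and 4.91 to 7.76 with it. Neither ratio overlapped between the HCB-labelled and other libraries. These pairs, and those below, were chosen after the values were seen, so they are given with no test.

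**Figure D2:**
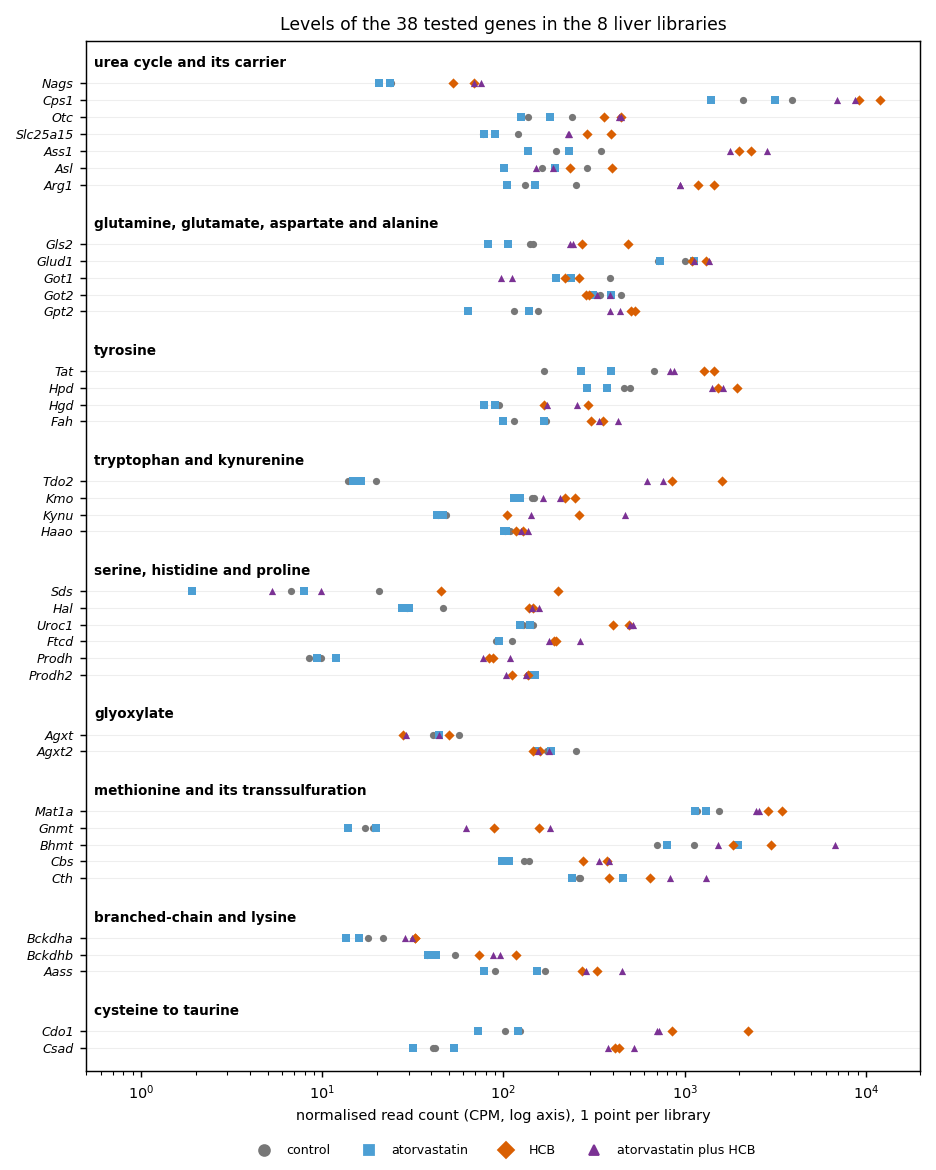
Normalised read count (CPM, log axis) of the 38 tested genes, grouped by role, with 1 point per library and 2 libraries per group. In 28 rows the HCB and combined libraries all lie to the right of the control and atorvastatin libraries, and in the rows of Asl, Glud1, Got1, Got2, Sds, Prodh2, Agxt, Agxt2, Bhmt and Cth they overlap.

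The promoters of the urea cycle genes are shown because 6 of these genes were called higher in both comparisons and Asl in neither. RefSeq promoter windows on GRCr8, a later build than that of the counts, run from 250 bases before to 50 bases after the annotated start and were given for 32 of the 39 members. The windows of the 4 urea cycle genes with the smallest p among those in the table are printed 5′ to 3′ on the gene's strand, with capitals at a match to a searched motif.
Ass1, chr3:35149480-35149779, plus strand: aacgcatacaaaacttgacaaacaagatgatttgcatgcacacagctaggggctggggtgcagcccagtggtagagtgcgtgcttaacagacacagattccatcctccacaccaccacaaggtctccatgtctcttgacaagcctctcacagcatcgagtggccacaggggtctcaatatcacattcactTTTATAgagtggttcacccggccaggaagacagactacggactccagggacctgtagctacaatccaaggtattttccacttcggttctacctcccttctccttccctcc
Slc25a15, chr16:76336620-76336919, plus strand: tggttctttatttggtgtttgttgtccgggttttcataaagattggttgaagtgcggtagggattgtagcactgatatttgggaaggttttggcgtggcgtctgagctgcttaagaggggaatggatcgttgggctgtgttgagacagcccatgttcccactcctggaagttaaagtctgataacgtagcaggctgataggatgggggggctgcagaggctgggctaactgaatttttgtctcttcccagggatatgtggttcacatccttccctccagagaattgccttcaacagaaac
Nags, chr10:87598266-87598565, plus strand: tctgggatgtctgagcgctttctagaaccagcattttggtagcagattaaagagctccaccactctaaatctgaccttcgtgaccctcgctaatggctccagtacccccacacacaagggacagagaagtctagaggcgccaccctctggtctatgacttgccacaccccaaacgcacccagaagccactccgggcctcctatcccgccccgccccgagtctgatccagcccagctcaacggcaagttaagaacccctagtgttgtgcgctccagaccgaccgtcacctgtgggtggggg
Cps1, chr9:76063613-76063912, plus strand: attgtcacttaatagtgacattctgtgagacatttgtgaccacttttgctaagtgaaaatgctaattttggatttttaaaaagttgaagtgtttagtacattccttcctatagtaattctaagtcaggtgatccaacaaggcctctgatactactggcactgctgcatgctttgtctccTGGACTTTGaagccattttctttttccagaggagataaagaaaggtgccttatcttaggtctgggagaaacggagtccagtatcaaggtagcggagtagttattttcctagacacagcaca

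The motifs were searched on both strands. CAAAGTCCA, a form of the site of the liver nuclear receptor HNF4, was found in 3 of the 32 member promoters (9.38%) against 0.391% of 33469 promoters of the same length. The members were Cps1 (bases −71 to −63 from the start base, on the reverse strand), Kmo (−74 to −66, reverse) and Agxt2 (−48 to −40). CAAAGGTCA, another HNF4 form, was found in Bhmt (3.12% of members against 0.424% of all promoters). Cps1 rose in both comparisons, while Kmo, Agxt2 and Bhmt were called in neither, so the stretches around the match are set beside that of Cps1 above.
Kmo, chr13:90089427-90089475, plus strand: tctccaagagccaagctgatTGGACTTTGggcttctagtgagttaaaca
Agxt2, chr2:61063348-61063396, plus strand: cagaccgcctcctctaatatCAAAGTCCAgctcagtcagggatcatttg
Bhmt, chr2:26614650-26614679, minus strand: cCAAAGGTCAgtgtgcagacgagcaagcag

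The other motifs were found in 0 to 5 member promoters each. The TATA box TATAAA was in 15.6% of member promoters and 14.2% of all, and the match in Ass1 lies on the reverse strand at −60 to −55. The partial glucocorticoid receptor site TGTTCT was in 15.6% and 20.7%, and the partial HNF1 site GTTAAT in 9.38% and 7.45%. The C/EBP form TTGCACAA was in 3.12% (Hgd) and 0.816%, the C/EBP form TTGCGCAA in 0 members and 0.17%, and the CRE TGACGTCA in 0 members and 1.83%. In no member promoter did matches of different motifs overlap. A match describes letters in the window and shows no binding.

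Of the 5 tested genes that handle glutamine, glutamate, aspartate and alanine, 2 rose in both comparisons, 1 fell in the comparison under atorvastatin and 2 were called in neither. Gpt2, the mitochondrial alanine aminotransferase, was at 114 and 156 CPM in control, 139 and 63.9 CPM with atorvastatin, 506 and 531 CPM with HCB and 389 and 439 CPM with both. It rose by 1.94 ± 0.37 (SE; edgeR adjusted p = 0.00344) and by 2.03 ± 0.37 (edgeR adjusted p = 0.00274) on the log2 scale. Gls2, the liver-type glutaminase that releases ammonia from glutamine, was at 140 and 145 CPM in control, 82.0 and 106 CPM with atorvastatin, 488 and 270 CPM with HCB and 243 and 232 CPM with both. Its log2 fold changes were 1.41 ± 0.31 (SE; edgeR adjusted p = 0.00771) and 1.34 ± 0.31 (edgeR adjusted p = 0.00998). Without control replicate 1 the first was no longer called (edgeR adjusted p = 0.0604), and without atorvastatin replicate 1 or replicate 1 of both agents the other was not (edgeR adjusted p = 0.0652 and 0.0598).

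Got1, the cytosolic aspartate aminotransferase, went the other way in the libraries of both agents. Its level was 228 and 389 CPM in control, 195 and 237 CPM with atorvastatin, 260 and 219 CPM with HCB and 111 and 97.6 CPM with both. The 2 libraries of both agents lay below the other 6. Got1 fell by 1.05 ± 0.30 on the log2 scale in atorvastatin plus HCB versus atorvastatin (SE; edgeR adjusted p = 0.0261) and was not called in HCB versus control (−0.37 ± 0.30, edgeR adjusted p = 0.393). The interaction, which tests that difference, was −0.69 ± 0.43 and was not called (edgeR adjusted p = 1). The fall was no longer called without atorvastatin replicate 2 or without either library of both agents (edgeR adjusted p from 0.0918 to 0.175).

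Glud1 (glutamate dehydrogenase) was the most abundant gene of this role at a mean of 790 TPM. It stood between 714 and 1125 CPM without HCB and between 1098 and 1364 CPM with it and was not called (log2 fold changes of 0.48 and 0.43). Got2, the mitochondrial aspartate aminotransferase, was not called either (−0.43 ± 0.28 and 0.02 ± 0.28, edgeR adjusted p = 0.269 and 0.962), and 15.1% of its exon bases are shared with a gene on the other strand. With no TMM factor the sign under atorvastatin turned for Glud1 (−0.16) and Got2 (−0.59), neither of them called in the comparison with TMM. On that scale Got1 and Got2 kept their sign in HCB versus control and were called lower there (−0.76 and −0.84, edgeR adjusted p = 0.0409 and 0.0207).

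All 4 tyrosine genes rose in HCB versus control and 3 of 4 under atorvastatin. They form 1 route, from the aminotransferase Tat through Hpd and Hgd to Fah, the hydrolase lost in tyrosinaemia. Hpd, which makes homogentisate, was the most abundant at 1264 TPM. It was at 497 and 462 CPM in control, 289 and 374 CPM with atorvastatin, 1948 and 1529 CPM with HCB and 1621 and 1415 CPM with both, and rose by 1.86 ± 0.32 (SE; edgeR adjusted p = 0.0021) and 2.20 ± 0.33 (edgeR adjusted p = 0.000855) on the log2 scale. Hgd, at 77.9 to 94.9 CPM without HCB and 168 to 294 CPM with it, rose by 1.41 ± 0.32 (SE; edgeR adjusted p = 0.00878) and 1.35 ± 0.32 (edgeR adjusted p = 0.0108). Fah, at 98.9 to 171 CPM without HCB and 305 to 430 CPM with it, rose by 1.21 ± 0.33 (SE; edgeR adjusted p = 0.021) and 1.53 ± 0.33 (edgeR adjusted p = 0.00716).

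Tat had the largest SE of the tyrosine genes. It was at 167 and 675 CPM in control, 269 and 394 CPM with atorvastatin, 1279 and 1459 CPM with HCB and 834 and 878 CPM with both. In CPM the groups did not overlap by HCB label, and control replicate 2 stood well above control replicate 1. On the TPM scale control replicate 2 (651 TPM) lay above replicate 1 of both agents (646 TPM). The log2 fold change was 1.70 ± 0.53 (SE; edgeR adjusted p = 0.0359) in HCB versus control and 1.37 ± 0.53 (edgeR adjusted p = 0.0747) under atorvastatin, where it was not called. Tat was called under atorvastatin by DESeq2 (adjusted p = 0.0146), with a replicate block (edgeR adjusted p = 0.0434) and under 4 other settings. In HCB versus control Tat was not called without control replicate 1, HCB replicate 1 or HCB replicate 2 (edgeR adjusted p from 0.112 to 0.161). Without HCB replicate 1 or control replicate 1, Hgd was not called there (edgeR adjusted p = 0.0593 and 0.0803), nor was Fah (0.0504 and 0.177), which was also lost without HCB replicate 2 (0.0745). Under atorvastatin both lost the call without atorvastatin replicate 1 or replicate 1 of both agents (edgeR adjusted p from 0.0519 to 0.103).

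Tdo2 showed the largest change of any member. It encodes tryptophan dioxygenase, which opens the tryptophan ring at the head of the kynurenine route and is used as a marker of mature hepatocytes. Tdo2 (chromosome 2, 167269579 to 167287511) was at 13.8 and 19.7 CPM in control, 14.7 and 16.4 CPM with atorvastatin, 1617 and 855 CPM with HCB and 756 and 623 CPM with both. No HCB-labelled library came near the others. The log2 fold changes were 6.20 ± 0.44 (SE; edgeR adjusted p = 6.55e-06), a 73.7-fold difference, and 5.47 ± 0.43 (edgeR adjusted p = 1.32e-05), a 44.4-fold difference. Its promoter is printed because it changed most, a choice made after the values were seen, with the TATAAA match in capitals at −228 to −223.
Tdo2, chr2:169585537-169585836, minus strand: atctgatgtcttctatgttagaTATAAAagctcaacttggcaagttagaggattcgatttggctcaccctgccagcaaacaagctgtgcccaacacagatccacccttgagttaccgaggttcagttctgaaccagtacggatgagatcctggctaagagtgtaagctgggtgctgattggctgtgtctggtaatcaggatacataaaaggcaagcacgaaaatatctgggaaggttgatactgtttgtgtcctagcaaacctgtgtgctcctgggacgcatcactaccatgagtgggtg

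The next steps changed less. Kynu (kynureninase) was at 43.8 and 48.5 CPM in control, 46.5 and 43.0 CPM with atorvastatin, 262 and 105 CPM with HCB and 468 and 142 CPM with both. In both HCB groups replicate 1 was the higher library. Kynu rose by 1.99 ± 0.54 (SE; edgeR adjusted p = 0.0223) and 2.77 ± 0.56 (edgeR adjusted p = 0.00556) on the log2 scale. The first call was lost without any 1 of the control and atorvastatin libraries or without HCB replicate 1 (edgeR adjusted p from 0.0542 to 0.185), and the other without either atorvastatin library (edgeR adjusted p = 0.0625 and 0.0707).

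Kmo (kynurenine monooxygenase), at 115 to 147 CPM without HCB and 166 to 249 CPM with it, did not overlap between the HCB-labelled and other libraries but was not called (0.69 ± 0.24 and 0.64 ± 0.24, edgeR adjusted p = 0.0585 and 0.0714). DESeq2 called it in both (adjusted p = 0.0177 and 0.0306), as did edgeR without HCB replicate 1 in the comparison under atorvastatin (adjusted p = 0.0458). Haao, at 101 to 109 CPM without HCB and 118 to 136 CPM with it, also did not overlap and was not called (0.22 ± 0.22 and 0.35 ± 0.22). With no TMM factor Haao was at −0.21 and −0.28 instead. On the TPM scale both Kmo and Haao overlapped between the HCB-labelled and other libraries.

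Among the serine, histidine and proline genes 5 of 6 rose in HCB versus control and 4 of 6 under atorvastatin. Prodh, the proline dehydrogenase of mitochondria (chromosome 11, 82910137 to 82927305), was at 9.85 and 8.50 CPM in control, 9.41 and 11.9 CPM with atorvastatin, 83.0 and 87.2 CPM with HCB and 109 and 77.1 CPM with both. It rose by 3.21 ± 0.27 (SE; edgeR adjusted p = 1.96e-05) and 3.13 ± 0.26 (edgeR adjusted p = 2.34e-05) on the log2 scale. Prodh2, which acts on hydroxyproline, was the most abundant gene of this role at 220 TPM, stood between 103 and 150 CPM in all 8 libraries and was not called (−0.14 ± 0.24 and −0.32 ± 0.24). Prodh was 0.0386 to 0.0488 times Prodh2 per base of exon without HCB and 0.373 to 0.505 times Prodh2 with it.

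The histidine genes act in series, and all 3 rose in both comparisons. Hal (histidine ammonia lyase), the first step, was at 29.4 and 46.7 CPM in control, 27.7 and 30.0 CPM with atorvastatin, 146 and 138 CPM with HCB and 158 and 144 CPM with both. It rose by 1.90 ± 0.26 (SE; edgeR adjusted p = 0.000558) and 2.39 ± 0.27 (edgeR adjusted p = 0.00015) on the log2 scale. Uroc1 (urocanase), at 123 to 146 CPM without HCB and 402 to 519 CPM with it, rose by 1.70 ± 0.27 (SE; edgeR adjusted p = 0.00116) and 1.95 ± 0.27 (edgeR adjusted p = 0.000566). Ftcd, at the last step, rose by 0.93 and 1.23, from 91.4 to 111 CPM without HCB to 178 to 264 CPM with it. With no TMM factor Ftcd was called in neither comparison (0.48 and 0.59, edgeR adjusted p = 0.24 and 0.129). Ftcd lost its call in HCB versus control without either library of control or HCB (edgeR adjusted p from 0.0552 to 0.131), and under atorvastatin without replicate 1 of both agents (edgeR adjusted p = 0.0864).

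Sds (serine dehydratase, chromosome 12, 36083229 to 36088203), which turns serine to pyruvate, was highest in the HCB group. It was at 6.73 and 20.5 CPM in control, 1.92 and 7.95 CPM with atorvastatin, 201 and 45.4 CPM with HCB and 9.80 and 5.31 CPM with both. Both HCB libraries lay above the other 6, and the libraries of both agents lay below control replicate 2. Sds rose in HCB versus control by 3.17 ± 0.87 (SE; edgeR adjusted p = 0.0269) and was not called under atorvastatin (0.61 ± 0.83, edgeR adjusted p = 0.61). The interaction of −2.57 ± 1.17 was not called (edgeR adjusted p = 1, unadjusted p = 0.0564). Its 2 HCB libraries differed widely from each other, and the call in HCB versus control was lost without either control library, either atorvastatin library or HCB replicate 1 (edgeR adjusted p from 0.0838 to 0.277).

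Glyoxylate was the role without a rise. Agxt, the aminotransferase whose loss causes primary hyperoxaluria, was between 40.9 and 57.0 CPM without HCB and between 28.0 and 49.8 CPM with it (log2 fold changes of −0.33 ± 0.31 and −0.28 ± 0.31, edgeR adjusted p = 0.459 and 0.528). Agxt2, its mitochondrial counterpart, was between 154 and 253 CPM and between 146 and 178 CPM (−0.49 ± 0.27 and −0.02 ± 0.27, edgeR adjusted p = 0.201 and 0.968), and was the more abundant at 193 TPM. Both overlapped between the HCB-labelled and other libraries in CPM. On the TPM scale, which carries no TMM factor, both lay below without overlap, as did Got1, Got2 and Prodh2. With no TMM factor Agxt2 was called lower in HCB versus control (−0.89, edgeR adjusted p = 0.0203) and Agxt lower under atorvastatin (−0.92, edgeR adjusted p = 0.0396), as was Prodh2 (−0.96, edgeR adjusted p = 0.0165).

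Methionine is converted to S-adenosylmethionine by Mat1a, used by Gnmt, remade from homocysteine by Bhmt or passed to cysteine by Cbs and Cth. In HCB versus control 3 of these 5 rose, and under atorvastatin 4 did. Gnmt was at 19.1 and 17.3 CPM in control, 13.8 and 19.9 CPM with atorvastatin, 157 and 88.6 CPM with HCB and 181 and 62.5 CPM with both. It rose by 2.75 ± 0.47 (SE; edgeR adjusted p = 0.00191) and 2.85 ± 0.47 (edgeR adjusted p = 0.00166) on the log2 scale, and 19.6% of its exon bases are shared with Pex6 on the other strand. Cbs (cystathionine synthase), at 98.2 to 138 CPM without HCB and 275 to 384 CPM with it, rose by 1.27 ± 0.27 (SE; edgeR adjusted p = 0.00558) and 1.80 ± 0.27 (edgeR adjusted p = 0.000855), and was not called in HCB versus control without control replicate 1 (edgeR adjusted p = 0.0544).

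Mat1a, the adult liver form of the synthetase, was at 1175 and 1544 CPM in control, 1136 and 1317 CPM with atorvastatin, 2899 and 3442 CPM with HCB and 2561 and 2471 CPM with both, without overlap. It rose by 1.22 ± 0.34 (SE; edgeR adjusted p = 0.0223) and 1.04 ± 0.34 (edgeR adjusted p = 0.0423). The first call was lost without any 1 of the 4 libraries compared (edgeR adjusted p from 0.0507 to 0.177), and the other without any 1 of the 8 libraries except those of HCB (edgeR adjusted p from 0.0525 to 0.182). Cth (cystathionine lyase) was at 261 and 263 CPM in control, 240 and 458 CPM with atorvastatin, 642 and 382 CPM with HCB and 1316 and 833 CPM with both. It rose under atorvastatin (1.62 ± 0.40, edgeR adjusted p = 0.0135) and was not called in HCB versus control (0.97 ± 0.40, edgeR adjusted p = 0.0948). The interaction of 0.66 ± 0.56 was not called (edgeR adjusted p = 1). The rise of Cth was not called without atorvastatin replicate 1 or replicate 1 of both agents (edgeR adjusted p = 0.0804 and 0.11), while DESeq2 called Cth in HCB versus control (adjusted p = 0.0303).

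Bhmt was the most abundant of all 39 members at 2239 TPM, and its libraries varied widely within groups. It was at 701 and 1124 CPM in control, 801 and 1982 CPM with atorvastatin, 3010 and 1842 CPM with HCB and 6754 and 1524 CPM with both. The libraries overlapped, and neither log2 fold change was called (1.41 ± 0.66 and 1.57 ± 0.66, edgeR adjusted p = 0.136 and 0.0993). Without replicate 2 of both agents the one under atorvastatin was 2.31. Without the filter on low counts both were called (1.41 and 1.58, edgeR adjusted p = 0.00301 and 0.000708). With the 2 groups alone the one in HCB versus control was called (1.4, edgeR adjusted p = 0.0252). Bhmt was 4.56 to 10.2 times its neighbour in function Bhmt2 per base of exon without HCB and 4.30 to 10.8 times with it.

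Cysteine is oxidised by Cdo1 and decarboxylated by Csad on the way to taurine, and both rose in both comparisons. Cdo1 (cysteine dioxygenase, chromosome 18, 39432474 to 39447296) was at 102 and 124 CPM in control, 72.7 and 121 CPM with atorvastatin, 2233 and 851 CPM with HCB and 701 and 725 CPM with both. It rose by 3.77 ± 0.48 (SE; edgeR adjusted p = 0.000341) and 2.88 ± 0.46 (edgeR adjusted p = 0.00139) on the log2 scale. Csad (chromosome 7, 133308574 to 133337615) was at 41.0 and 42.0 CPM in control, 53.4 and 31.6 CPM with atorvastatin, 436 and 413 CPM with HCB and 376 and 528 CPM with both. Its log2 fold changes of 3.35 ± 0.34 (SE; edgeR adjusted p = 7.09e-05) and 3.41 ± 0.34 (edgeR adjusted p = 6.59e-05) ranked with Tdo2 and Prodh as the smallest p among the members in each comparison. Cdo1 was the more abundant, at 704 TPM over all libraries against 87.9 TPM for Csad.

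The branched-chain and lysine genes made smaller moves, and all 3 rose in both comparisons. With no TMM factor Bckdha was called in neither (0.31 and 0.41, edgeR adjusted p = 0.411 and 0.233). Nor was Bckdhb (0.64 and 0.56, edgeR adjusted p = 0.0984 and 0.12), and Aass was not called in HCB versus control (0.83, edgeR adjusted p = 0.0624). Bckdha was also not called there with the 2 groups alone (0.71, edgeR adjusted p = 0.0878). Bckdhb, of the branched-chain ketoacid dehydrogenase, was at 37.7 to 54.3 CPM without HCB and 73.2 to 118 CPM with it and rose by 1.05 ± 0.28 (SE; edgeR adjusted p = 0.0185) and 1.18 ± 0.28 (edgeR adjusted p = 0.0107). Bckdha, its partner subunit, was at 13.6 to 21.7 CPM and 28.8 to 32.7 CPM and rose by 0.72 ± 0.23 (SE; edgeR adjusted p = 0.0361) and 1.03 ± 0.23 (edgeR adjusted p = 0.00741), with 52.7% of its exon bases shared with Exosc5 and B3gnt8 on the other strand. Aass, which starts lysine breakdown and was the most abundant of the 3 at 141 TPM, was at 77.8 to 169 CPM and 271 to 452 CPM and rose by 1.21 ± 0.41 (SE; edgeR adjusted p = 0.0469) and 1.67 ± 0.41 (edgeR adjusted p = 0.0126). In HCB versus control all 3 calls were lost without control replicate 1 or HCB replicate 1 (edgeR adjusted p from 0.0734 to 0.298). Bckdha and Aass were also lost without HCB replicate 2 or either library of both agents, and Bckdha without control replicate 2 (edgeR adjusted p from 0.052 to 0.0885). Under atorvastatin all 3 were lost without atorvastatin replicate 1 or replicate 1 of both agents (edgeR adjusted p from 0.0586 to 0.0995).

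Ratios of related genes within a library were also taken for pairs chosen after the values were seen. Mat1a was 34.8 to 48.1 times Mat2a, the form of the synthetase used in other tissues, per base of exon without HCB and 101 to 174 times with it. Tdo2 was 0.803 to 0.956 times Ido2, another enzyme that opens tryptophan, without HCB and 24.0 to 68.2 times with it. The cationic amino acid carrier Slc7a2 was 47.5 to 71.5 times Slc7a1 without HCB and 698 to 2053 times with it. Got1 to Got2 overlapped, at 0.143 to 0.206 without HCB and 0.0677 to 0.213 with it.

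**Figure D3:**
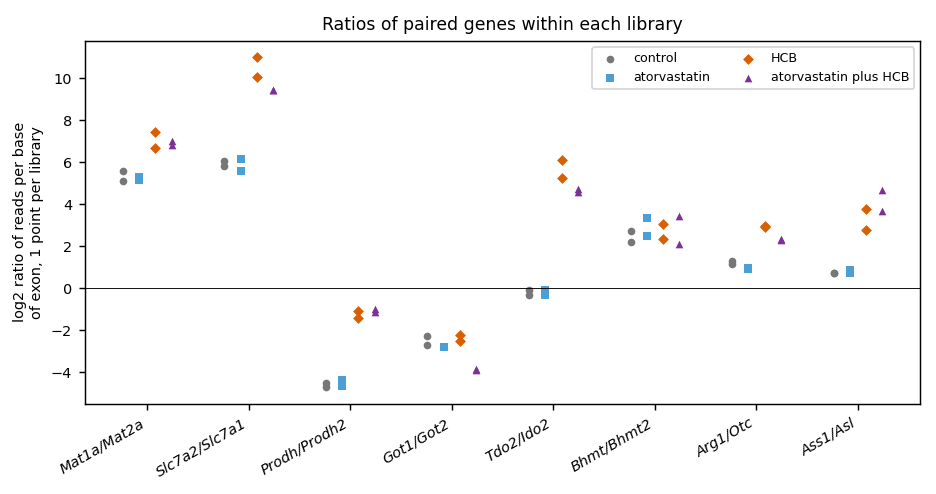
Log2 ratio of reads per base of exon between the genes of each of 8 pairs, with 1 point per library and 2 libraries per group. The HCB and combined libraries lie above the control and atorvastatin libraries in 6 pairs, and in Got1/Got2 and Bhmt/Bhmt2 they overlap.

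Other genes of the same pathways were taken from lists by known function, drawn up with earlier results of these data known. Of 55 tested genes of amino acid breakdown outside the set, 34 rose and 1 fell in HCB versus control, and 37 rose and 0 fell under atorvastatin. The shares of all genes were 13% and 12.6% called higher and 13.9% and 15% called lower. Median log2 fold changes of this list were 0.97 and 1.07. The 4 with the smallest p in HCB versus control were Hykk, the hydroxylysine kinase (4.20 ± 0.28), Pipox, of pipecolate oxidation (4.10 ± 0.28), Dao, the D-amino acid oxidase (2.64 ± 0.25), and Oat, the ornithine aminotransferase (4.53 ± 0.51). Oat was at 10.7 to 28.9 CPM without HCB and 174 to 805 CPM with it. The gene that fell was Ppm1k, the phosphatase of the branched-chain dehydrogenase (−1.59 ± 0.35, edgeR adjusted p = 0.00767), a gene singled out once its values were known.

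Of 15 tested genes of amino acid synthesis or of forms used outside adult liver, 1 rose, 4 fell and 10 were not called in each comparison, beside 13.9% and 15% of all genes called lower. The medians of the list were −0.47 and −0.58. Aldh18a1, which starts proline synthesis, fell by 1.90 ± 0.40 on the log2 scale (SE; edgeR adjusted p = 0.00595), Psat1 of serine synthesis fell by 2.89 ± 0.70 (edgeR adjusted p = 0.0165) and Bcat1, the branched-chain aminotransferase of tissues other than liver, fell by 3.72 ± 1.12 (edgeR adjusted p = 0.0315, on 14 and 21 reads in control and 2 and 0 with HCB; singled out once its values were known) in HCB versus control, while Odc1, which makes putrescine from ornithine, rose by 1.16 ± 0.25 (edgeR adjusted p = 0.00732). Under atorvastatin the 1 that rose was Glul, the glutamine synthetase (0.97 ± 0.31, edgeR adjusted p = 0.0389), likewise singled out once its values were known.

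Of the 20 tested carriers 6 rose, 5 fell and 9 were not called in each comparison, beside 13% and 12.6% of all genes called higher and 13.9% and 15% called lower. The glutamate transporter Slc1a2 rose by 5.48 ± 0.48 and 5.66 ± 0.48 on the log2 scale, from 0.498 to 0.853 CPM without HCB to 21.5 to 42.5 CPM with it. The aromatic amino acid carrier Slc16a10 rose by 1.53 and 1.54. The neutral amino acid carriers Slc1a4 (−3.21 ± 0.46) and Slc1a5 (−2.91 ± 0.43) fell in HCB versus control. Among 15 regulators 3 rose, 1 fell and 11 were not called in each comparison, a count that does not set the list apart from those shares of all genes. Ppargc1a, a coactivator of fasting genes, fell by 2.27 ± 0.36 (SE; edgeR adjusted p = 0.00116), and Cebpb (1.43 ± 0.26), Klf15 (1.43 ± 0.30) and Hnf4a (0.94 ± 0.31) rose in HCB versus control. Nr3c1, the glucocorticoid receptor, and Gcgr, the glucagon receptor, were not called (0.51 ± 0.28 and 0.69 ± 0.28), and are given for their known role.

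**Figure D4:**
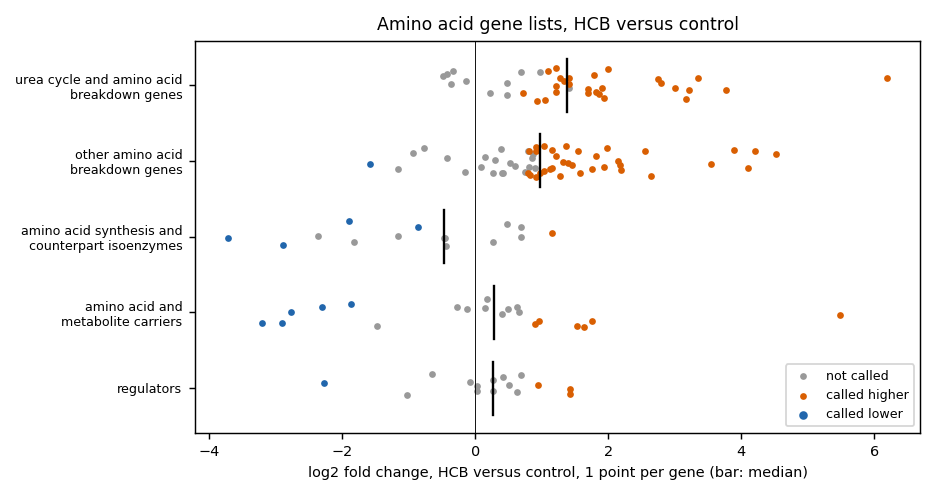
Log2 fold change in HCB versus control of each tested gene in 5 lists, with 1 point per gene, coloured by its call, and a bar at the median of the list. The medians are 1.37 for the urea cycle and amino acid breakdown genes, 0.97 for other breakdown genes, −0.47 for synthesis and counterpart genes, 0.29 for carriers and 0.26 for regulators.

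With the filter on low counts, edgeR called no member for atorvastatin on its own or on top of HCB. The comparisons were atorvastatin versus control, atorvastatin plus HCB versus HCB, the interaction and the average effect of atorvastatin, and in each 0% of the 16591 genes were called. At an unadjusted p under 0.05 the counts of members were 0, 6, 0 and 5, and the counts of all genes 181, 857, 391 and 601. DESeq2 called 1 member, Got1, which was lower in atorvastatin plus HCB versus HCB, among 25 higher and 19 lower genes, and 0 members in the other 3. Without the filter on low counts edgeR called Sds lower in all 4 and Got1 lower in atorvastatin plus HCB versus HCB and in the average. That fit called 57 of 22537 genes higher and 19 lower in atorvastatin versus control, and 83 and 96 in atorvastatin plus HCB versus HCB. It called 19 higher and 51 lower in the interaction, and 76 and 64 in the average.

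In atorvastatin plus HCB versus HCB the members with the smallest p were Sds (−4.03 ± 0.91, edgeR adjusted p = 0.811), Got1 (−1.20 ± 0.31, edgeR adjusted p = 0.848) and Cth (1.07 ± 0.40, edgeR adjusted p = 0.892). Sds was at 201 and 45.4 CPM with HCB against 9.80 and 5.31 CPM with both, without overlap. In atorvastatin versus control the smallest p belonged to Gls2 (−0.60 ± 0.31), Bckdha (−0.42 ± 0.23) and Sds (−1.46 ± 0.84), each with an edgeR adjusted p of 1. For the average effect of atorvastatin they were Sds (−2.74 ± 0.61), Got1 (−0.86 ± 0.21) and Gls2 (−0.64 ± 0.22), each with an edgeR adjusted p of 0.99, and for the interaction Sds (−2.57 ± 1.17), Got1 (−0.69 ± 0.43) and Tdo2 (−0.73 ± 0.50). With 2 libraries per group, these values do not show that atorvastatin left the genes as they were. The largest shift to either side in atorvastatin versus control was in Sds (−1.46) and Bhmt (0.61), and the median of the members was −0.18, beside 0.01 over all genes.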

How the data were processed

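RNA was sequenced from 8 rat livers. The submitters' processing notes name fastp 0.23.4, STAR 2.7.10b and the build mRatBN7.2. Per the file headers, the authors' deposited values are raw read counts per gene, made over exons with featureCounts 2.0.6 on Ensembl release 111, without strand or multimapping options. The reads in all classes summed to 508 M, which is 2.04 times the 249 M that the labels state. Both mates may thus have entered the counts, and an alternative divided the counts by 2. No row lacked a gene, and 4367 genes have no symbol.

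The test was edgeR's quasi-likelihood test (edgeR 4.0.16, R 4.3.3), after TMM and filterByExpr, robust, over all 4 groups together (4 residual degrees of freedom, common coefficient of variation 0.295), with Benjamini-Hochberg adjustment over 16591 genes and a threshold of 0.05. Steps were tested on simulated data. CPM use the TMM library size, and TPM use exon length only. SE is the log2 fold change divided by the root of F. Ratios of pairs added 0.5 reads. Promoters are RefSeq windows on GRCr8.

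Members, lists and alternatives were chosen with earlier results of these data known. Full statistics were given for up to 3 members per role with the smallest p in HCB versus control and for members whose calls differ between comparisons. They were also given for the other urea cycle genes and for Bhmt. From each other list, up to 4 genes past the threshold were named. Alternatives were DESeq2 1.42.0, its size factors, no filter, a filter of 1 CPM in 2 libraries, no robust estimation, a replicate block, 2 groups alone, counts divided by 2, a fit that drops control replicate 1 and atorvastatin replicate 1, which have the most reads outside exons, each library left out, and, added after seeing the data, no TMM factor. Replicate numbers were not taken to pair the animals. An isoenzyme ratio and a gene of the synthesis list are not reported here. Figures used matplotlib 3.10.9.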

Additional observations from a re-analysis of the deposited data

How the results depend on the processing

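In HCB versus control, 27 members rose. That count was 14 without both libraries with most reads outside exons, and 13 to 25 with 1 library left out (13 without control replicate 1 and 15 without HCB replicate 1). Under atorvastatin, 26 rose, 15 without both libraries, and 15 to 27 with 1 left out (15 without atorvastatin replicate 1 and 16 without replicate 1 of both agents). Of 1 that fell, 0 to 1 remained a call with 1 left out. With no TMM factor 3 members were lower in each comparison, against 0 and 1. Of all 16591 genes, 3269 and 4701 were then called lower, against 2301 and 2487. The median of all genes moved from −0.09 to −0.53 and from −0.11 to −0.73. By TPM, 5 members lay below without overlap, against 0 by CPM. Tat, Kmo, Haao, Ftcd and Bckdha, which lay above without overlap by CPM, overlapped by TPM. Lower calls of members for atorvastatin without the filter numbered 1 (versus control), 2 (with HCB), 1 (interaction) and 2 (average), and 1 by DESeq2 with HCB, each against 0. Of all 22537 genes without the filter, 19, 96, 51 and 64 were called lower in that order. DESeq2 with HCB called 19 of 16591 genes lower. With the replicate block 27 rose and 0 fell in HCB versus control and 27 rose and 1 fell under atorvastatin. The labels give replicates of the same number no shared source, and the differences between replicates correlated at −0.10 to 0.33. Removing 1 library of a group assumes that the other varies as in the rest.

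Directions turned only for changes called in neither fit. In HCB versus control, with 1 library left out, Got1 ran from −0.70 to 0.10 and Agxt from −0.78 to 0.02, and Haao was −0.21 with no TMM factor. Under atorvastatin with no TMM factor, Asl was −0.35, Glud1 −0.16, Got2 −0.59 and Haao −0.28. Without both libraries with most reads outside exons, Asl was −0.19, Got2 −0.13 and Sds −0.08, and Got2 was −0.02 with the stricter filter. With 1 library left out, Asl ran from −0.18 to 0.75, Got2 from −0.13 to 0.20, Sds from −0.07 to 1.99, Agxt from −0.58 to 0.02 and Agxt2 from −0.14 to 0.13. Over both comparisons and the alternatives, 606 and 607 gene values kept direction and call, 67 and 48 lost the call and 8 and 12 gained it.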

Other observations

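Transcripts of kidney tubule were detected in every liver library. Slc34a1, a phosphate carrier of the proximal tubule, was at 12.6 to 25.0 CPM without HCB and 3.39 to 33.7 CPM with it, and the kidney genes Umod and Slc12a1 were at 0.641 to 5.19 and 0.801 to 6.27 CPM over the 8 libraries. HCB replicate 2 was the lowest library for all of these, and none of them was called in either HCB comparison. Kidney also expresses some of the genes described above, and their part in the results was not tested. Lrp2, listed with the tubule genes, was called higher in both HCB comparisons (2.97 ± 0.32 and 3.23 ± 0.32 on the log2 scale).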
